A study of Mus musculus with 18 samples.

Results

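The genes Slc13a5, Mmd2, Klhl33 and B430219N15Rik were examined in the liver of mice born from stored germline stem (GS) cells. They were chosen by gene symbol, as 4 of the 32285 genes in the count table, because they were among the genes with the largest falls in pups against BDF1 mice in an earlier look at the same libraries. All 4 were among the 12847 genes that passed the filter on low counts. By unscaled library totals, which the filter uses, each was above the filter level of 0.560 CPM in all 6 BDF1 libraries, but Klhl33 in only 2 Space libraries and Slc13a5 in only 2 Ground libraries, so that a gene could pass through BDF1 alone. Because the fall chose them, the pup against BDF1 values of these genes are a description and carry no test. Klhl33 was chosen on Space, Slc13a5 and Mmd2 on Ground and B430219N15Rik on both. Differences by replicate number were not used by the choice, although the same libraries were.

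Liver RNA was sequenced from 18 wild-type B6D2F1 mice in 3 groups of 6. GS cells are spermatogonial stem cells grown in culture. Here they came from mice of the C57BL6/Tg14(act-EGFP-OsbY01) line, which carries an EGFP transgene, crossed into a DBA/2 background, and they were kept frozen for 6 months either on the International Space Station (Space) or on Earth (Ground). After thawing they were transplanted into infertile W mice, which were housed with C57BL/6 females, and the livers of the resulting offspring were taken at 10 weeks of age. BDF1 controls were wild-type mice without a GS cell history, and the labels do not give their age. The labels call the pups wild-type, and whether a sequenced pup carried the transgene is not given. Space and Ground pups therefore share culture, freezing, transplantation into a W recipient and descent from donor cells of the EGFP line bred into DBA/2. None of these is given for the BDF1 mice, and they cannot be told apart in a comparison of pups with BDF1. Neither the number of GS cell lines nor that of recipient fathers is given per animal, so that p-values measure the spread between these animals and no more.

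Total counts per library ranged from 15407450 to 20562351, and 3 counts, the limit that a count of 0 allows, stood for 0.134 to 0.236 CPM (counts per 10⁶ of the scaled library size). This limit and the intervals below cover counting error only. Summed levels of 10 hepatocyte markers ran from 73450 to 114819 CPM in BDF1, from 105350 to 313250 CPM in Space and from 89936 to 426468 CPM in Ground, and none was at 0. Summed levels of 20 markers of Kupffer, endothelial, stellate, bile duct and blood cells ran from 229 to 406, from 285 to 392 and from 284 to 467 CPM in the same order, and none was at 0 throughout a group. The labels give no sex, but replicates 1 to 3 of every group had 1822 to 2482 summed counts of 4 Y-linked genes and at most 187 of Xist. Replicates 4 to 6 had at most 26 counts of the Y-linked genes and 12218 to 21557 of Xist. By these counts replicates 1 to 3 were male and replicates 4 to 6 female. The paper reports that both sexes of F1 mice were analyzed in each group. In the 6 pup libraries numbered 4 to 6 the 10 most abundant genes took 29.7% to 39.5% of counts, against 14.5% to 19.4% in the other 12.

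The 4 genes have different known roles. Slc13a5 encodes the sodium-coupled citrate transporter of the hepatocyte plasma membrane, which carries citrate from blood into the cell, where it can be cleaved to acetyl-CoA for fatty acid and sterol synthesis. Mmd2 encodes a membrane protein of the progestin and adipoQ receptor (PAQR) family, to which the adiponectin receptors also belong. Klhl33 encodes a Kelch-like protein, and many proteins of this family bring substrates to ubiquitin ligases built on the scaffold CUL3. B430219N15Rik is annotated as an antisense noncoding RNA with no function given.

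In the mm10 build with GENCODE M21, Slc13a5 is at chr11:72241989-72267222, Mmd2 at chr5:142562358-142608800 and Klhl33 at chr14:50888582-50897507, all protein-coding and on the minus strand. B430219N15Rik is at chr10:7780185-7781357 on the plus strand, a single exon of 1173 bp inside the body of Ginm1, a gene of the minus strand, with which it shares 157 bp of exon. Promoters were available for 3 of the 4 genes and are shown so that the sequence before each start can be compared. They are the 250 bases before a RefSeq start in GRCm38.p6, 5′ to 3′ on the strand of the gene, with matches to searched motifs in capitals. For Klhl33 and Slc13a5, which have 2 RefSeq starts each, the start closest to most GENCODE starts was used. The windows are chr11:72266605-72266854 for Slc13a5, chr5:142608753-142609002 for Mmd2 and chr14:50897484-50897733 for Klhl33, all on the minus strand.
Slc13a5: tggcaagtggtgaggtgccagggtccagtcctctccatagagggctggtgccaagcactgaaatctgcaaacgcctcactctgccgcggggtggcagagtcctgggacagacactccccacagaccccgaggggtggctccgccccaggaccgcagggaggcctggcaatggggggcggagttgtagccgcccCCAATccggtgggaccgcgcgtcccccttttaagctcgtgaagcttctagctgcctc
Mmd2: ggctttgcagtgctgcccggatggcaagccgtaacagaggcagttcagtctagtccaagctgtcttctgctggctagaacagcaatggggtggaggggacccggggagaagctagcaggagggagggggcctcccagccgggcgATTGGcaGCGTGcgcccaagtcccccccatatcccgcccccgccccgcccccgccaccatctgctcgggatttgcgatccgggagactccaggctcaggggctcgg
Klhl33: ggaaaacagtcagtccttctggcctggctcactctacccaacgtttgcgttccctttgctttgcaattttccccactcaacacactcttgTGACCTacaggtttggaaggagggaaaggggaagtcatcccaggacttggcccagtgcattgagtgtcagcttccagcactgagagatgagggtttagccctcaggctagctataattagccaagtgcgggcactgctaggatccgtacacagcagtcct
Both strands were searched for 8 motifs, and none of the motifs was shared by all 3 windows. A CCAAT box (CCAAT, present in 33.8% of 32851 windows of this length) lay 57 bases before the start of Slc13a5 and, as ATTGG on the other strand, 106 bases before that of Mmd2. Mmd2 also held the core of the xenobiotic response element (GCGTG, in 28.2% of windows). The window of Klhl33 held TGACCT, the nuclear receptor hexamer AGGTCA read on the other strand (in 14.0% of windows). No match to the E-box CACGTG (6.02%), the D-box TTANGTAA (2.06%), the cyclic AMP response element TGACGTCA (1.55%), the STAT site TTCNNNGAA (7.02%) or the TATA box TATAAA (12.4%) was found in these 3 windows. The Slc13a5 and Mmd2 windows held 65.6% and 67.2% GC, above the median of 52.4% over all windows, and that of Klhl33 held 52.4%.

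Slc13a5 was low in both pup groups. In BDF1 its level was 2.63 CPM at the lowest, 4.45 at the median and 5.59 at the highest. In Space these values were 0.0785, 0.950 and 1.60 CPM, and in Ground they were 0.263, 0.640 and 1.42 CPM. No pup library reached the lowest BDF1 library, so the groups did not overlap. Means were 4.39 ± 1.01 CPM in BDF1, 1.00 ± 0.555 in Space and 0.704 ± 0.431 in Ground (SD, n = 6), ratios of BDF1 to pups of 4.38 and 6.24. The log2 change in edgeR was -2.10 (SE 0.41) in Space and -2.62 (SE 0.43) in Ground. The lowest library, Space replicate 4, had 1 count, with a Poisson interval from 0.00199 to 0.438 CPM, against 15 to 30 counts in the other Space libraries. Fewer cells of a type and less RNA per cell cannot be told apart in such bulk samples.

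**Figure D1:**
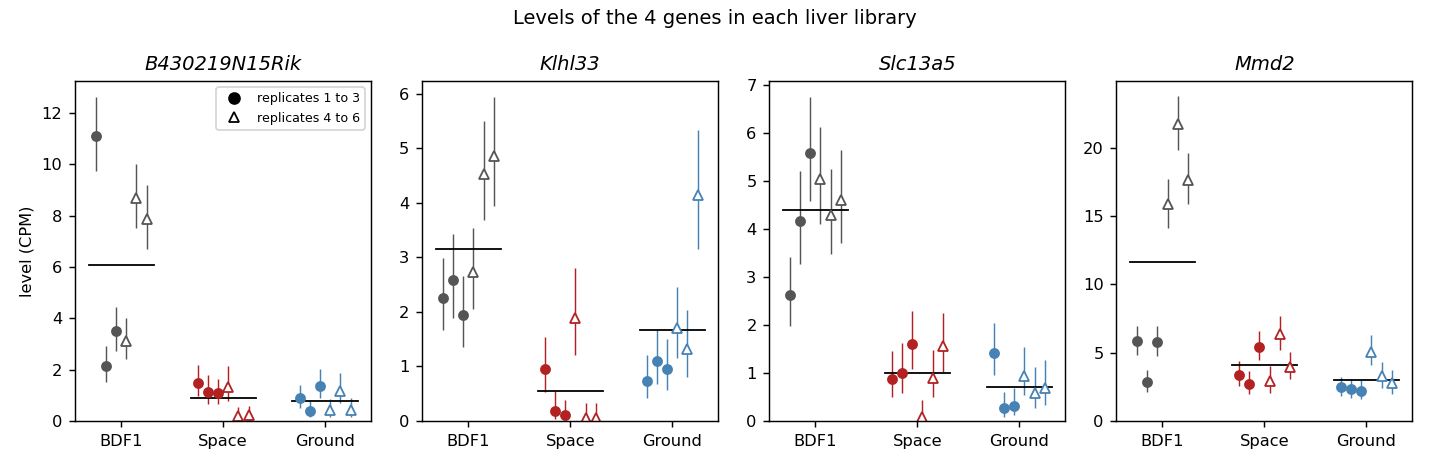
Levels (CPM) of the 4 genes in each library, by group. Points are libraries with 95% Poisson intervals, filled circles replicates 1 to 3 and open triangles replicates 4 to 6, and black lines are group means. Pup libraries of Slc13a5 and B430219N15Rik lie below every BDF1 library, and Mmd2 is highest in BDF1 replicates 4 to 6.

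Mmd2 fell less and overlapped between groups. Its level in BDF1 was 2.85 CPM at the lowest, 10.8 at the median and 21.7 at the highest, the widest absolute range of the 4 genes. Space libraries had 2.69, 3.66 and 6.36 CPM and Ground libraries 2.21, 2.60 and 5.07 CPM in the same order. Only 1 Space library and 4 Ground libraries lay below the lowest BDF1 library, and the high values were those of BDF1 replicates 4 to 6. Means were 11.6 ± 7.76 CPM in BDF1, 4.12 ± 1.48 in Space and 3.01 ± 1.08 in Ground (SD, n = 6). These correspond to log2 changes of -1.49 (SE 0.41) in Space and -1.95 (SE 0.41) in Ground.

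Klhl33 was lowest in Space pups and uneven among them. BDF1 libraries had 1.93 CPM at the lowest, 2.65 at the median and 4.86 at the highest, and Ground libraries 0.734, 1.21 and 4.14 CPM. In Space the lowest was 0.0575 CPM, the median 0.147 and the highest 1.88. Replicates 2, 3, 5 and 6 of Space had 3, 2, 1 and 1 counts, at or below the limit of 3 counts, while replicates 1 and 4 had 16 and 24. The highest Space library was just below the lowest BDF1 library, and Ground replicate 6, with 60 counts, lay inside the BDF1 range while the other 5 Ground libraries lay below it. Means were 3.15 ± 1.23 CPM in BDF1, 0.540 ± 0.741 in Space and 1.66 ± 1.26 in Ground (SD, n = 6). The log2 change was -2.61 (SE 0.65) in Space and -0.94 (SE 0.58) in Ground. Without Space replicate 4 the Space value was -3.51, and without Ground replicate 6 the Ground value was -1.44.

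B430219N15Rik was low in both pup groups. In BDF1 it had 2.14 CPM at the lowest, 5.69 at the median and 11.1 at the highest, in Space 0.180, 1.10 and 1.47, and in Ground 0.368, 0.648 and 1.37. The pup libraries held 3 to 26 counts and the BDF1 libraries 39 to 236, and the groups did not overlap. Means were 6.07 ± 3.64 CPM in BDF1, 0.902 ± 0.559 in Space and 0.771 ± 0.437 in Ground (SD, n = 6), with ratios of BDF1 to pups of 6.73 and 7.87. Its log2 change was -2.75 (SE 0.52) in Space and -2.96 (SE 0.52) in Ground. Its exon of 1173 bp lies inside Ginm1. If counting ignored strand, which the sources do not state, reads of Ginm1 RNA from this stretch could be counted for B430219N15Rik. How reads of the 157 bp of shared exon were assigned is not given. Ginm1 itself averaged 47.3 ± 6.03 CPM in BDF1, 44.9 ± 8.04 in Space and 40.3 ± 6.28 in Ground (SD, n = 6), with log2 changes of -0.07 and -0.23 (edgeR adjusted p = 0.798 and 0.323).

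Counted by call, 4 of 4 genes were lower in Space and 3 of 4 in Ground at an edgeR adjusted p under 0.05, beside 1.46% and 2.05% of all genes tested. In both comparisons the values chose the genes, so nothing is read from these counts. With 1 library left out at a time, Mmd2 kept its Space call in 5 of 18 fits, those without Space replicate 5, Ground replicate 4 or BDF1 replicate 1, 2 or 3. Klhl33 kept it in 11 of 18, losing it without Space replicate 2, 3, 5 or 6 or BDF1 replicate 4, 5 or 6. Mmd2 lost its Ground call without BDF1 replicate 5. Every Space library was below every BDF1 library for 3 of the 4 genes (1.61% of genes tested), every Ground library for 2 (1.64%), and all 12 pup libraries for Slc13a5 and B430219N15Rik (0.397%). Among 182 genes called lower in Space that averaged at least 1 CPM, B430219N15Rik, Klhl33, Slc13a5 and Mmd2 ranked 1, 3, 6 and 7 by size in the edgeR fit over all libraries, while with limma voom Klhl33, at -3.43, fell further than B430219N15Rik, at -2.31. In Ground, B430219N15Rik, Slc13a5 and Mmd2 ranked 2, 4 and 5 of 254. Genes with falls of this size that are not members were, in Space, Bmf at -2.73, Rian at -2.54 and Meg3 at -2.37, and in Ground Sult2a7 at -4.06 and Bmf at -2.90. The next gene in Ground was Rian, at -1.92 against -1.95 for Mmd2.

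Per kilobase of exon, B430219N15Rik was the most abundant of the 4 in BDF1, at 5.17 ± 3.10 CPM per kb. Mmd2 followed at 2.24 ± 1.49, Slc13a5 at 0.889 ± 0.204 and Klhl33 at 0.499 ± 0.196 CPM per kb (SD, n = 6), and the ranges of neighbours in this order overlapped. In Space the order was Mmd2 (0.794 ± 0.284), B430219N15Rik (0.769 ± 0.477), Slc13a5 (0.203 ± 0.112) and Klhl33 (0.0857 ± 0.118 CPM per kb, SD, n = 6), and again the ranges of neighbours overlapped. In Ground, Klhl33 at 0.263 ± 0.200 stood above Slc13a5 at 0.142 ± 0.0872 CPM per kb, within their spread.

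Space and Ground pups, which differ by label in the place where their GS cells were stored, were compared directly. The cell line and recipient behind each pup are not given, so other differences are not excluded. The choice of Klhl33 on Space and of Slc13a5 and Mmd2 on Ground bears on the sign of this difference. None of the 4 genes passed, and in edgeR 0 of 12847 genes did (0%), although 1186 had an unadjusted p under 0.05, DESeq2 called 30 and limma voom with quality weights called 31. Klhl33 differed most, at a log2 change of -1.67 (95% interval -3.06 to -0.28) in Space against Ground, with an edgeR adjusted p of 0.461, and over the 10 of 11 other settings that gave one, that p was between 0.0585 and 1.00. Without Space replicate 4 the value was -2.57 and without Ground replicate 6 it was -1.17. All Ground libraries had more Klhl33 than the 4 lowest Space libraries, whereas Space replicates 1 and 4 lay inside the Ground range. For Slc13a5 the difference was 0.52 (-0.40 to 1.45, adjusted p = 0.760), for Mmd2 0.46 (-0.41 to 1.33, adjusted p = 0.780) and for B430219N15Rik 0.21 (-0.94 to 1.35, adjusted p = 0.948, all edgeR). With 1 library left out at a time, Slc13a5 ran from 0.34 (without Space replicate 3) to 0.87 (without Ground replicate 1), Mmd2 from 0.29 (without Space replicate 5) to 0.67 (without Ground replicate 4) and B430219N15Rik from 0.0042 (without Space replicate 1) to 0.46 (without Ground replicate 3). The intervals over all libraries allow differences of more than 1 log2 unit for each of the 4 genes, so that equal levels are not shown.

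The next question was whether the genes differed between replicates 1 to 3 and replicates 4 to 6. These sets were male and female by Xist and the Y-linked genes in every group. With group in the model, Mmd2 was higher in replicates 4 to 6 by 0.99 on the log2 scale (SE 0.26, edgeR adjusted p = 0.00603). This comparison called 35.9% of all genes tested, and in it Mmd2 was the only member that passed. BDF1 replicates 4 to 6, high in Mmd2, also made much of the fall that chose it, so its p is a description. Klhl33 had 0.96 (SE 0.43, adjusted p = 0.0905), B430219N15Rik -0.29 (SE 0.41, adjusted p = 0.618) and Slc13a5 -0.005 (SE 0.32, adjusted p = 0.993, all edgeR). Klhl33 passed when Space replicate 1, 5 or 6 was left out, at adjusted p of 0.0404, 0.0442 and 0.0414, and in a fit of the BDF1 libraries alone at 0.0379. In the fit by group and replicate set its difference in BDF1 was 0.84 (SE 0.65) and did not pass (adjusted p = 0.428, edgeR).

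By group, the Mmd2 difference was largest in BDF1. There, replicates 1, 2 and 3 had 5.83, 2.85 and 5.80 CPM and replicates 4, 5 and 6 had 15.8, 21.7 and 17.7 CPM. In Space the values were 3.36, 2.69 and 5.45 against 2.91, 6.36 and 3.97 CPM, and in Ground 2.45, 2.31 and 2.21 against 5.07, 3.28 and 2.76 CPM. The sets did not overlap in BDF1 or in Ground and overlapped in Space. From a fit by group and replicate set, computed after the data were seen, the log2 difference was 1.93 (SE 0.31, edgeR adjusted p = 0.000578) in BDF1, beside 15.2% of genes called. It was 0.21 (SE 0.33, adjusted p = 0.699) in Space and 0.68 (SE 0.35, adjusted p = 0.195) in Ground, where 22.2% and 18.5% of genes were called. In the 6 lower-numbered and 6 higher-numbered pup libraries without BDF1, it was 0.43 with an edgeR adjusted p of 0.196. Because BDF1 replicates 4 to 6 also made much of the fall that chose Mmd2, the p in BDF1 is a description.

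The pup against BDF1 values of Mmd2 are given by replicate set as a description, since they chose the gene. In replicates 4 to 6 the BDF1 mean of 18.4 ± 3.02 CPM was 4.17 times that of Space (4.41 ± 1.77) and 4.97 times that of Ground (3.70 ± 1.21 CPM, SD, n = 3), and no pup library reached the BDF1 range. In replicates 1 to 3 the BDF1 mean of 4.83 ± 1.71 was 1.26 times that of Space (3.83 ± 1.44) and 2.08 times that of Ground (2.32 ± 0.118 CPM, SD, n = 3). The Space against BDF1 log2 change in replicates 4 to 6 minus that in replicates 1 to 3 was -1.72 (SE 0.45), and for Ground this difference was -1.25 (SE 0.46), beside 3.45% and 2.91% of all genes called, from which nothing is read. With 1 library left out at a time the Space value lay between -2.08 and -1.37.

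**Figure D2:**
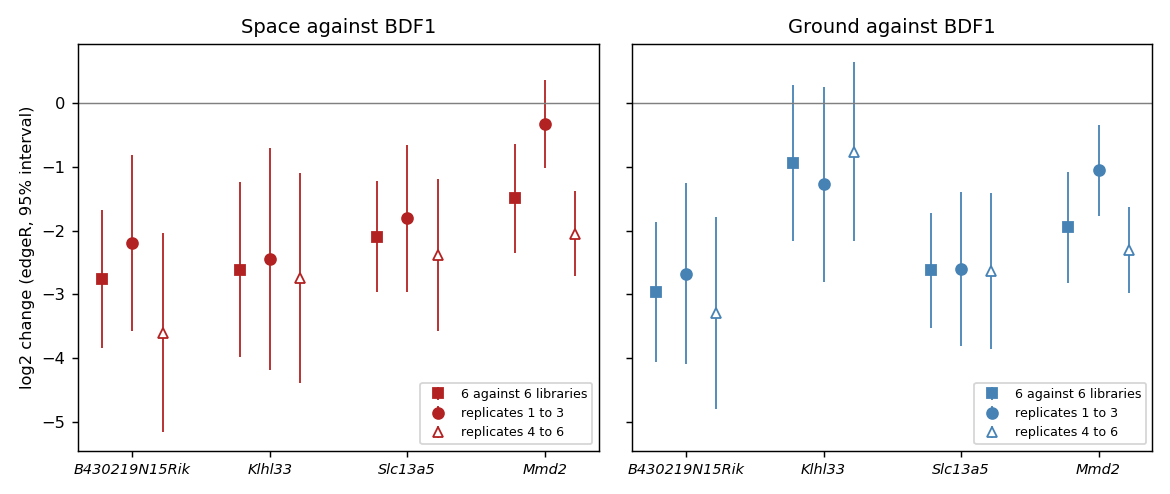
Log2 change of the 4 genes in Space (left) and Ground (right) pups against BDF1, from edgeR with 95% intervals, over all libraries (squares), replicates 1 to 3 (circles) and replicates 4 to 6 (open triangles). The changes chose the genes and are drawn as a description. Mmd2 in Space was -0.33 in replicates 1 to 3 and -2.05 in replicates 4 to 6, and the other 3 genes had wide, overlapping intervals.

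The other 3 genes are described in the same way. Slc13a5 had log2 changes in Space of -1.81 in replicates 1 to 3 and -2.39 in replicates 4 to 6, and in Ground of -2.60 and -2.63. B430219N15Rik had -2.19 and -3.60 in Space and -2.68 and -3.29 in Ground, and Klhl33 -2.44 and -2.74 in Space and -1.28 and -0.77 in Ground. The differences between replicate sets were between -1.41 and 0.51 for these genes, with SE of 0.78 to 1.20, and single libraries moved them by over 1.5 times. Replicate sets also differed in clock genes, of which 16 of 19 passed beside 35.9% of all genes tested, among them Dbp at 5.52 on the log2 scale, and in summed hepatocyte markers. These sums were at 243127 CPM or more in pup replicates 4 to 6, against 92735 to 114819 in BDF1 replicates 4 to 6 and at most 108143 in the other libraries. Alb, the albumin gene, made up much of them, with a mean of 140625 of 191519 CPM in Space, and 3 of the 10 markers passed between replicate sets, with a list median of 0.12. These measures move with the replicate set, and so with sex, and cannot be told apart from it. Their part in the Mmd2 pattern was not tested.

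**Figure D3:**
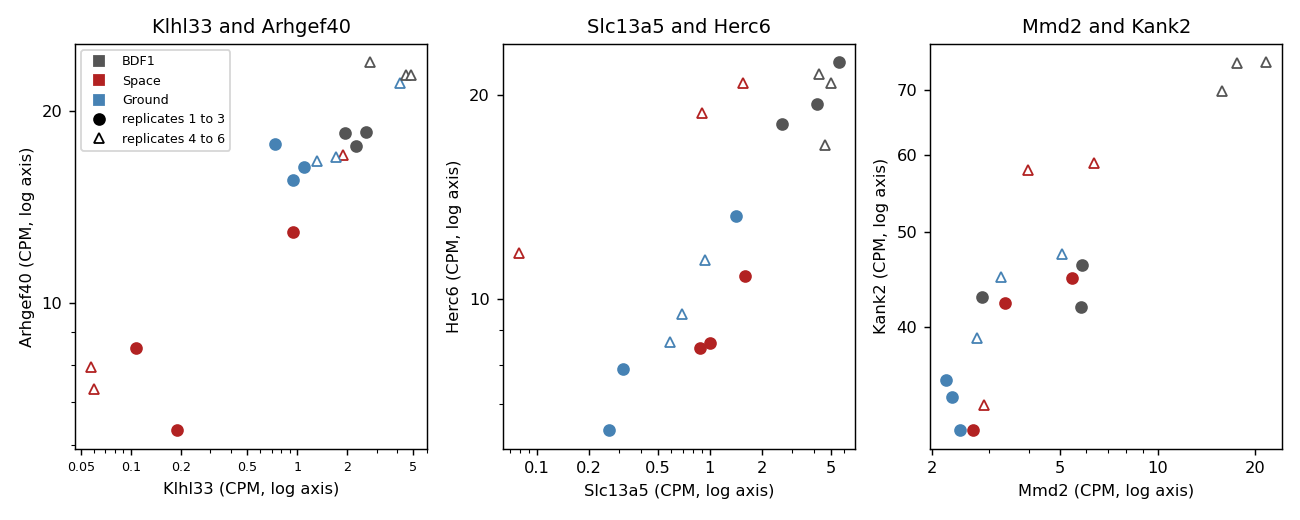
Levels (CPM, log axes) per library of Klhl33 against Arhgef40, Slc13a5 against Herc6 and Mmd2 against Kank2. Colours are groups, filled circles replicates 1 to 3 and open triangles replicates 4 to 6. The 4 Space libraries lowest in Klhl33 are lowest in Arhgef40, and BDF1 replicates 4 to 6 are highest in both Mmd2 and Kank2.

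For each member the genes with the most similar log2 levels over the 18 libraries were listed, out of 11721 genes with at least 1 CPM. These correlations describe shared libraries and shared groups and carry no test. A gene alike over all libraries to one chosen for a fall in pups tends to fall there too, so the pup against BDF1 changes of such genes are a description. Klhl33 was most like Arhgef40 (r = 0.946), a guanine nucleotide exchange factor gene, and Slc39a2 (r = 0.890), a zinc transporter gene. Both lie on chromosome 14, 1.087 and 0.995 Mb from Klhl33. Arhgef40 had 6.32 to 8.49 CPM in Space replicates 2, 3, 5 and 6 and 12.9 and 17.0 CPM in Space replicates 1 and 4, against 15.6 to 22.1 in Ground and 17.6 to 23.8 in BDF1. Slc39a2 had 1.14 to 2.08 CPM in the same 4 Space libraries and 2.30 and 2.51 CPM in Space replicates 1 and 4, against 1.97 to 3.04 in Ground and at least 2.35 in BDF1. The same 4 libraries were thus the lowest of all 18 in Klhl33 and Arhgef40, and the lowest of the Space group in Slc39a2, in which Ground replicate 5 lay below Space replicate 3. Against BDF1, Arhgef40 had log2 changes of -1.05 in Space and -0.23 in Ground, and Slc39a2 of -0.86 and -0.36. Against Ground the Space values were -0.82 and -0.50. After the mean of each group and replicate set was removed, Arhgef40 was still at r = 0.892 and Dnajb6, on chromosome 5, stood first at r = 0.900.

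Neighbourhoods were therefore counted, a choice made after these values were seen. That of Klhl33 had the highest share of genes called lower in Ground but not in Space. Of 102 other genes tested within 5 Mb of Klhl33, 3 were called lower in Space (2.94%), namely Tep1 and the genes Arhgef40 and Slc39a2 that prompted the count, and 8 in Ground (7.84%), beside 1.46% and 2.05% of all genes tested. Around Slc13a5 the counts were 6 (3.97%) and 4 (2.65%) of 151, around Mmd2 3 (2.40%) and 1 (0.8%) of 125, and around B430219N15Rik 1 (3.12%) of 32 in each. Tep1, which encodes a component of telomerase and vault particles, ends 18022 bp from Klhl33. It averaged 18.6 ± 1.60 CPM in BDF1, 13.2 ± 1.25 in Space and 13.3 ± 1.40 in Ground (SD, n = 6), a log2 change of -0.49 and -0.48 (edgeR adjusted p = 0.00526 and 0.00800). Apex1, a DNA repair endonuclease gene, was lower in Ground by -0.49 (adjusted p = 0.0486) and had -0.05 in Space (adjusted p = 0.886). Among 50 genes most like Klhl33, 5 were on chromosome 14, 10% against 3.44% of the genes compared, and 2 of them were within 5 Mb. For B430219N15Rik 0 of 50 were on chromosome 10, for Slc13a5 5 of 50 on chromosome 11 (10% against 8.09%) and for Mmd2 3 of 50 on chromosome 5 (6% against 6.65%). With the means of group and replicate set removed, Klhl33 had 2 of 50 on its chromosome (4%), B430219N15Rik 1 (2%), Slc13a5 9 (18%) and Mmd2 3 (6%). Within 100 kb, no tested neighbour of B430219N15Rik (6), Slc13a5 (3) or Mmd2 (2) was called in a pup group. Xaf1, 34407 bp from Slc13a5, came closest, at -0.45 in Space and -1.12 in Ground (edgeR adjusted p = 0.461 and 0.0649).

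Slc13a5 followed a different set once group and replicate set were removed. Among its nearest genes were then Herc6 (r = 0.916), Ddx58 (0.903), Lgals3bp (0.894) and Rnf213 (0.893), of which Herc6, Ddx58 and Rnf213 are known interferon-stimulated genes. Within its replicate set, Space replicate 4, the lowest in Slc13a5, had 11.7 CPM of Herc6 against 18.8 and 20.9 CPM in Space replicates 5 and 6. Space replicates 1 to 3 had less Herc6 than replicate 4, at 8.49 to 10.8 CPM, but more Slc13a5. Ground replicate 1, the highest of its group in Slc13a5, was highest of that group in Herc6 at 13.3 CPM. Herc6 had 16.9 to 22.4 CPM in BDF1, 8.49 to 20.9 in Space and 6.41 to 13.3 in Ground, so that Space overlapped BDF1 and Ground did not. Its log2 change was -0.58 in Space and -1.06 in Ground (edgeR adjusted p = 0.133 and 0.0168). Over all libraries Slc13a5 was nearest to Pbxip1 (r = 0.889), Ssrp1 (0.887), Usp4 (0.875), Psmd3 (0.870) and Gla (0.869).

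Among the genes most like Mmd2 were Kank2 (r = 0.903) and Sesn1 (r = 0.900), a stress-response gene. BDF1 replicates 4 to 6 had 69.8 to 74.6 CPM of Kank2, against 41.9 to 46.3 CPM in BDF1 replicates 1 to 3, 31.3 to 58.8 in Space and 31.4 to 47.5 in Ground. The same 3 BDF1 libraries were thus highest in both genes. Kank2 had log2 changes of -0.38 in Space and -0.59 in Ground. B430219N15Rik was most like Zfp324 (r = 0.900), a zinc finger gene with log2 changes of -0.74 and -0.57 in the pup groups, and, after removal of the means, like Acot11 (r = 0.923). Among themselves the 4 genes had r of 0.27 to 0.69 over 18 libraries, which the differences between groups enter. With group and replicate set removed, r was between -0.74 and 0.46, the highest for B430219N15Rik and Klhl33. Klhl33 and Slc13a5 then ran opposite (r = -0.74), Space replicate 4 being the highest in Klhl33 and the lowest in Slc13a5.

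The pathway around each coding member was then described from lists of related genes. Slc13a5 has 16 related genes of citrate transport and turnover, of which 14 were tested. In Space, 2 were lower (beside 1.46% of all genes tested) and none higher (beside 2.34%), with a median log2 change of 0.14 beside 0.0005 over all genes tested. Scaling by total counts in place of TMM moved the median of all genes to -0.25 in Space and -0.24 in Ground, with 5.05% and 6.83% called lower and 0.514% and 0.506% higher, so list calls that it changed are given with each list. The 2 genes called lower in Space with TMM were Slc13a3 and Idh3a. Slc13a3, a dicarboxylate transporter of the same family, was at -0.94 (edgeR adjusted p = 0.0331). Idh3a, a subunit of mitochondrial isocitrate dehydrogenase, was at -0.57 (edgeR adjusted p = 0.00556). In Ground, where 2.05% of all genes were called lower and 1.76% higher, only Idh3a of this list was called, lower at -0.46 (adjusted p = 0.0231), with a list median of -0.14 beside 0.02. By total counts the same 2 genes were lower in Space, and Idh3a, Slc13a3 and Slc25a11 in Ground. The mitochondrial citrate carrier Slc25a1 had 0.22 and -0.11, and ATP citrate lyase Acly, which cleaves citrate, had 0.93 and -0.17 in Space and Ground, none passing. Of the sister transporters Slc13a2 averaged 9.16 ± 2.59 CPM in BDF1, 11.3 ± 2.67 in Space and 8.05 ± 3.93 in Ground (SD, n = 6), and Slc13a1 and Slc13a4 were too low to test.

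Downstream of citrate, 4 of 15 genes of fatty acid and sterol synthesis were higher in Space, beside 2.34% of all genes tested, and none was lower, with a median of 0.82. Among them were Scd1, the stearoyl-CoA desaturase, at 2.77, Pklr, the liver pyruvate kinase, at 1.79, and Acaca, the acetyl-CoA carboxylase, at 0.93 (edgeR adjusted p = 0.0359, 0.00190 and 0.0450). In Ground, Pklr was higher at 1.38 and Srebf2, a regulator of sterol genes, lower at -0.70 (adjusted p = 0.00866 and 0.0236), with a median of 0.38. By total counts Scd1 and Pklr were higher and Srebf2 lower in Space, and in Ground Pklr was higher and genes including Srebf1 and Srebf2 were lower. Of 11 tested genes around the xenobiotic receptors PXR, CAR and AHR, of which PXR and AHR are known inducers of Slc13a5 in other species, Nr1i2, the PXR gene, was the only call in either pup group, beside 2.34% of all genes called higher in Space and 1.76% in Ground. It rose by 0.77 in Space and 0.50 in Ground (edgeR adjusted p = 0.00132 and 0.0137), from 51.3 ± 4.34 CPM in BDF1 to 87.5 ± 5.86 and 72.6 ± 11.8 CPM (SD, n = 6), and by total counts it passed in Space only. The AHR targets Cyp1a1 and Cyp1a2 did not pass in either group, at 0.92 and -0.19 in Space and 0.42 and -0.13 in Ground.

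**Figure D4:**
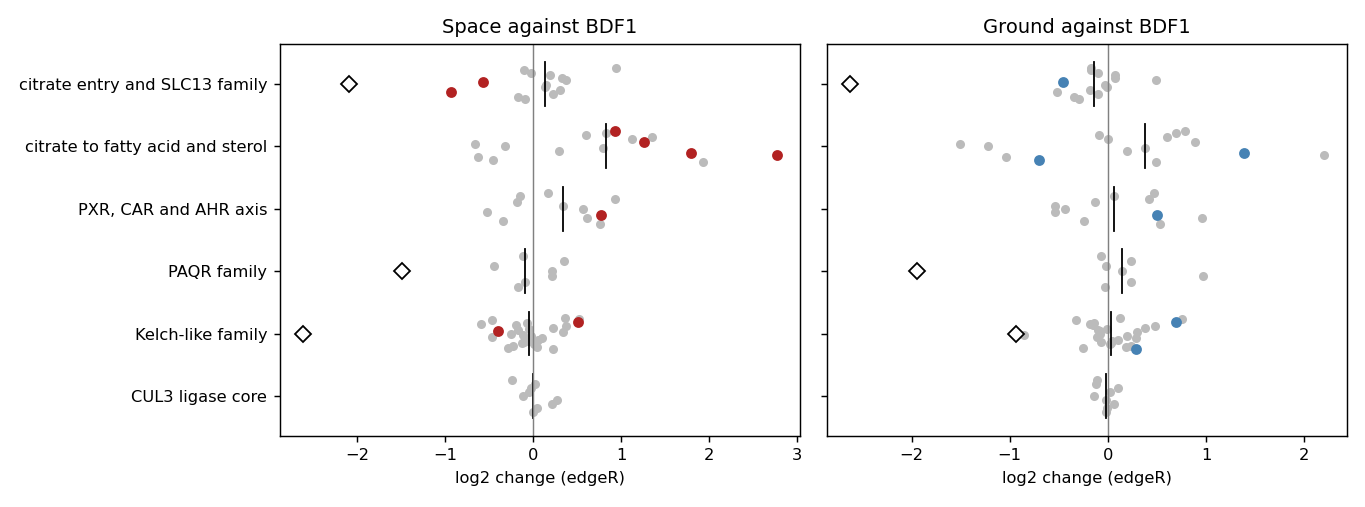
Log2 change of related genes in Space (left) and Ground (right) against BDF1, 1 point per tested gene, coloured where the edgeR adjusted p was under 0.05. Black lines are list medians, and open diamonds are Slc13a5, Mmd2 and Klhl33 beside the lists of their own family. The diamonds mark values that chose these genes, so nothing is read from their place, and the list medians lie between -0.14 and 0.82.

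For Mmd2 the family was examined in the same way. Of 10 other PAQR genes 7 were tested and none passed in either pup group, where 1.46% and 2.05% of all genes were called lower and 2.34% and 1.76% higher, with medians of -0.09 in Space and 0.14 in Ground. The closest relative, Mmd, had 145 ± 6.54 CPM in BDF1, 107 ± 38.0 in Space and 144 ± 58.8 in Ground (SD, n = 6), and log2 changes of -0.45 and -0.01 (edgeR adjusted p = 0.294 and 0.981), and by total counts it was called lower in Space. The adiponectin receptor Adipor2 had 0.35 and 0.23 (adjusted p = 0.149 and 0.347). Between replicate sets, where 35.9% of all genes passed, 2 of the 7 did, and both were higher in replicates 4 to 6, Mmd at 0.54 and Paqr4 at 0.98 (adjusted p = 0.00787 and 0.0309).

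Of 41 Kelch-like genes besides Klhl33, 40 were in the table and 27 were tested. In Space, Ivns1abp rose by 0.51 and Klhl20 fell by 0.40 on the log2 scale (edgeR adjusted p = 0.0214 and 0.0444). In Ground, Ivns1abp rose by 0.70 and Klhl9 by 0.29 (adjusted p = 0.00564 and 0.0243). The list medians were -0.05 in Space and 0.04 in Ground, beside 0.0005 and 0.02 over all genes tested. By total counts no Kelch-like gene was higher, Klhl20, Klhl22 and Klhl25 were lower in Space and Keap1 was lower in Ground. None of the 9 genes of the CUL3 ligase core passed in either pup group, beside the same shares of all genes as for the PAQR list, with medians of -0.0002 and -0.02, and Cul3 itself had 56.1 ± 4.62 CPM in BDF1, 55.2 ± 3.52 in Space and 60.3 ± 5.20 in Ground (SD, n = 6).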

How the data were processed

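The count table deposited by the authors holds whole read counts for each gene, without normalization, from stranded mRNA libraries grouped by their labels. The submitters' processing notes name bcl2fastq 2.20, cutadapt 4.6, HISAT2 2.2.1, HTSeq 2.0.2 and mm10, and the strand setting of counting is not given in the sources used here. Counts passing filterByExpr were scaled with TMM and fitted over 18 libraries with the quasi-likelihood F-test of edgeR 4.0.16 (R 4.3.3), with Benjamini-Hochberg adjustment over 12847 genes. Models held group, group and replicate set, or 6 cells of both. The SE of a log2 change is its size divided by the root of the F statistic, and a prior count of 2 entered log2 CPM. Named are the 4 members, called genes and up to 4 others per list, the most alike genes (5 per member) and tested neighbours within 100 kb. A few genes that the rule names are left out of the text. The members and lists were chosen with earlier results of these data known. Alternatives used DESeq2 1.42.0, limma 3.58.1, other filters and scalings, subsets and leaving out each library. Libraries of a group differed by at least 10.5 chi-square per gene, so none was a duplicate. Promoters are from RefSeq.

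Same-numbered libraries deviated together from their group means (correlations of 0.231 to 0.654 over 18 pairs). With the means of the replicate sets also removed, the correlations ran from -0.604 to 0.281 with a median of -0.05. The numbers thus carry the replicate sets, and no pairing of samples within a set was seen.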

Additional observations from a re-analysis of the deposited data

Results flagged for a closer look

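In a gap test on each group of 6 libraries, which chance passes in about 1 of 20 groups, 2 of 12 sets of member levels had a library far from the others. Klhl33 in Ground replicate 6 was 4.14 CPM against 1.71 CPM for the next library, a gap of 0.713 of the range. Mmd2 in Ground replicate 4 was 5.07 CPM against 3.28 CPM, a gap of 0.626 of the range, just above the critical value. The Space against BDF1 change of Mmd2 had a difference of -1.72 between replicates 4 to 6 and replicates 1 to 3 with an edgeR adjusted p of 0.0464, in a fit that called 3.45% of genes. With 1 library left out it passed in 6 of 18 fits, those without Space replicate 2 or 5 or Ground replicate 2, 4, 5 or 6, and its adjusted p reached 0.136 without Space replicate 3. The Ground difference was -1.25 (adjusted p = 0.163), where 2.91% of genes were called. These libraries chose Mmd2 for its fall against BDF1, so the p is a description and supports nothing.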

How the results depend on the processing

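All 232 refits of the 4 genes against BDF1 kept the direction of the fall, and 230 moved it by less than 1 SD. Calls, which are a description here, were lost for Mmd2 with limma voom in Space (-0.93, adjusted p = 0.200) and Ground (-1.44, 0.146) and without a filter in Space (-1.50, 0.0656), and for Klhl33 in Space in replicates 4 to 6 alone (-2.74, 0.108). In replicates 1 to 3 alone Mmd2 moved to -0.33 in Space and -1.06 in Ground and was not called (adjusted p = 0.550 and 0.0822). With numbers as a replicate block, which changed no call of the members, Mmd2 was -1.27 in Space and -1.74 in Ground, while all calls rose from 488 to 774 and from 489 to 843. By total counts 66 of 715 calls in Space and 65 of 943 in Ground were higher, beside 301 of 488 and 226 of 489 with TMM. For Space against BDF1, calls were 1030 with DESeq2, 1304 with limma voom, 281 without a filter, 1330 with the replicate set as covariate and 1090 in replicates 1 to 3 alone. For Ground they were 943 with total counts, 1087 with DESeq2, 218 without a filter, 1442 with the replicate set as covariate and 895 in replicates 4 to 6 alone. Space against Ground gave 30 with DESeq2, 31 with limma voom and 14 in replicates 1 to 3 alone. The replicate sets gave 3037 in BDF1 alone. Interaction calls with DESeq2 were 856 (Space) and 776 (Ground), and 1539 for Ground with total counts.

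Between replicate sets Slc13a5, near 0, turned positive with DESeq2 size factors (0.0011), limma voom (0.11), a filter at 1 CPM (0.0069) and in BDF1 alone (0.18). B430219N15Rik turned to 0.22 in BDF1 alone and, in Space against Ground, to -0.31 in replicates 4 to 6 alone. Klhl33 passed between the sets in BDF1 alone (0.84), and Mmd2 missed in pups alone (0.43).

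Leaving out 1 library gave 231 to 593 calls for Space, 141 to 667 for Ground, 0 to 6 between them, and 230 to 610 and 137 to 770 for the interactions. Between sets it moved Klhl33 from 0.70 to 1.18 and Slc13a5 from -0.12 to 0.19. In the Space interaction it moved Klhl33 from -3.50 to 1.16 and Mmd2 from -2.08 to -1.37, and in the Ground interaction Klhl33 from -0.13 to 0.80 and Slc13a5 from -0.40 to 1.17. B430219N15Rik moved from -2.76 (without Space replicate 4) to -0.96 (without Space replicate 5) in the Space interaction and from -1.58 (without BDF1 replicate 1) to -0.14 (without Ground replicate 3) in that of Ground, and Slc13a5 from -1.32 (without Space replicate 6) to -0.10 (without Space replicate 4) in that of Space. Counts in pup libraries were low, from 1 to 60 for Klhl33 and from 1 to 30 for Slc13a5. The cause of these shifts was not tested.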
